A study of Drosophila melanogaster with 6 samples.

Results

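The genes described here had a clear signal in control fly heads and read below 0.5 of that signal, on every hybridization day, in heads that overexpress LARK in neurons. Members are probe sets, the groups of short probes by which the array reads 1 transcript. A member had a raw signal above 100 on all 3 control arrays and a ratio of LARK overexpression to control below 0.5 in each of the 3 same-number pairs of arrays. Of 13966 probe sets other than array controls, 3050 passed the control limit and 75 of these (2.46%) met the ratio limit. The 5 that read nSyb, Syn, Gad1, DopEcR and Lk6 were set aside by name, and VGlut, also on the list of names to set aside, read 90.0 on control array 2 and did not reach the control limit. The remaining 70 probe sets are the members, so they were chosen by their signal in the genotype contrast itself. By the array's annotation 60 of them carry 1 gene symbol and stand for 58 genes, 1 carries several symbols and 9 carry none.

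The study asked how RNA in the fly head differs when LARK is raised in neurons. In LARK overexpression flies, a uas-lark transgene was expressed under elav-gal4, which drives in every neuron: the males were elav-gal4; uas-lark/+ and the females elav-gal4/+; uas-lark/+, from elav-gal4 females crossed to uas-lark males. Control flies came from elav-gal4 females crossed to w1118 males and carried the driver with no UAS insert, as elav-gal4 males and elav-gal4/+ females. Both sexes were mixed, and all flies lived at 25°C under a 12 h light, 12 h dark regime until they were taken at ZT6, 6 h after lights-on. Fly age is not given in the sources used here. By the series' description 1 RNA sample of adult heads per genotype was labeled and hybridized 3 times, on which the spread over the 3 arrays of a genotype is technical and holds no spread between flies. The values do not settle that description for LARK overexpression, where array 1 stands apart from the others. A head also holds glia, fat body, muscle and eye, and in such bulk RNA fewer cells of a type and less RNA per cell cannot be told apart.

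LARK is an RNA-binding protein of flies with a mammalian counterpart, RBM4, and is known for its part in the circadian timing of adult emergence. Neurons release transmitter from small synaptic vesicles and peptides from larger dense-core vesicles, and motor proteins of the kinesin family carry vesicle cargo along microtubules to the terminals. Many genes expressed in the brain have long transcripts with several start and end sites, so probe sets of 1 gene can read different transcripts.

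Arrays with the same replicate number shared a hybridization day, which is why the ratios were taken within numbers. LARK overexpression array 1 correlated on the log2 scale at 0.877 and 0.892 with arrays 2 and 3 and at 0.912 with control array 1, so it stands apart from its own genotype. Over all probe sets, 6312 to 8555 were above 40 on an array. The probe set of lark itself read 191 in both genotypes on average. Whether its probes lie in the transgene is not stated in the sources used here, so it does not check the labels. The log2 difference, LARK overexpression minus control, is given below as the mean over the 3 pairs. Because these same ratios chose the members, their values are a description and carry no test.

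The members had a median log2 difference of -1.60, from -4.01 to -1.04, with quartiles of -1.87 and -1.39. The same median was -0.03 over the 3050 probe sets above the control limit. In pairs 1, 2 and 3 the median ratio of the members was 0.352, 0.341 and 0.304, beside 1.05, 0.93 and 0.949 over the 3050. Pair 3 held the lowest of the 3 ratios for 34 members, pair 1 for 19 and pair 2 for 17. The log2 ratios of pairs 2 and 3 correlated at 0.762 over the 70 members, pairs 1 and 3 at 0.529 and pairs 1 and 2 at 0.432, and over the 3050 these were 0.86, 0.484 and 0.451. The members share their arrays, so these correlations describe the arrays as much as the genes. Pairs 2 and 3 thus ranked the members more alike than either did with pair 1. Without pair 1, which holds the LARK overexpression array that stands apart, the members' median was -1.62 and 146 probe sets met the rule in the other pairs.

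**Figure D1:**
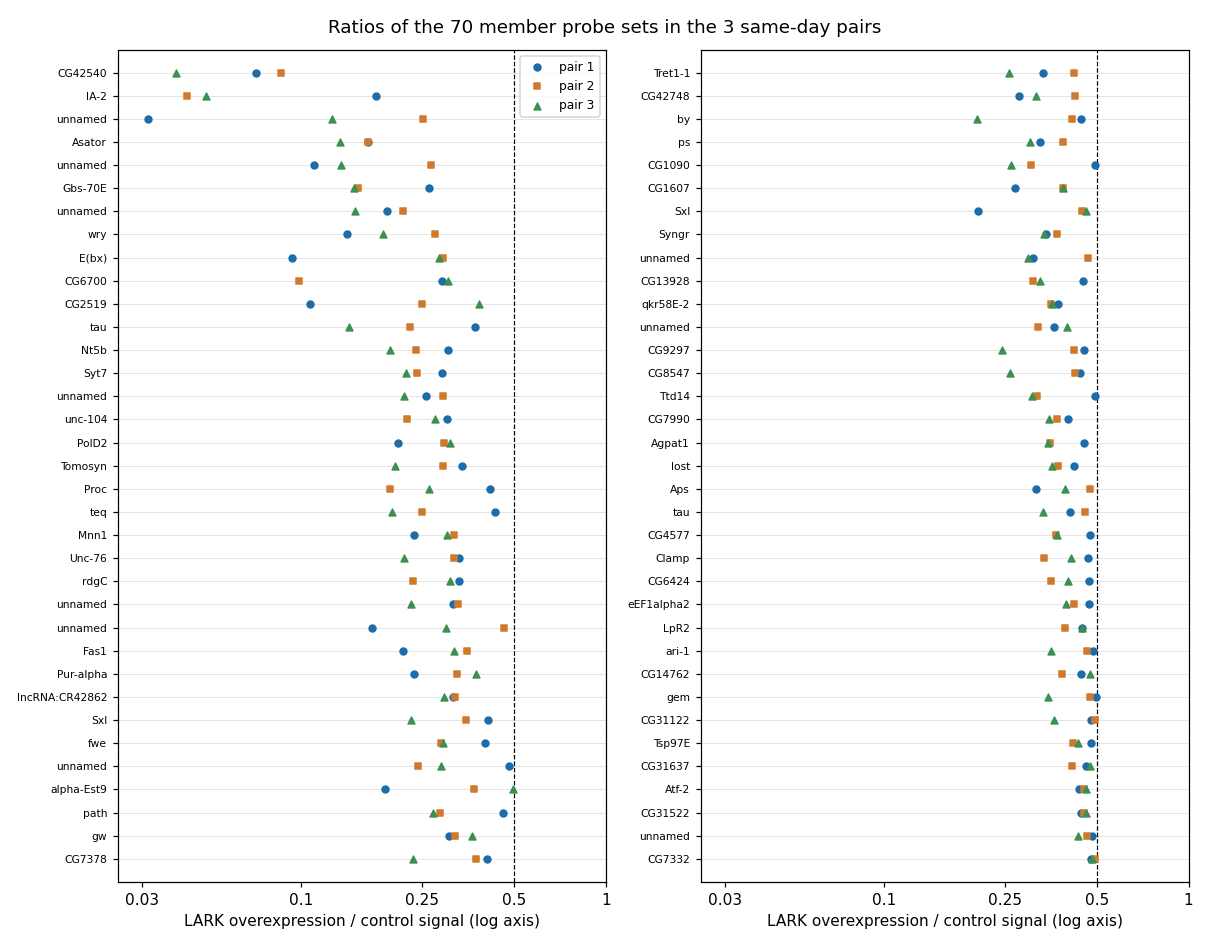
Ratio of LARK overexpression to control signal (log axis) for the 70 member probe sets in the same-day pairs 1, 2 and 3, ordered by mean log2 difference from CG42540 to CG7332. The dashed line marks the limit of 0.5 that chose the members, and 39 members have their largest ratio between 0.4 and that limit.

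Under the rule for every pair, the direction of the set had no mirror at the same control limit. None of the 3050 probe sets above the control limit read more than 2-fold higher with LARK overexpression in every pair, and 5 of 2923 did when the limit of 100 was set on the LARK overexpression arrays in its place. For 66 of the 70 members every LARK overexpression array read below every control array. Over the 3050 probe sets this held for 6.79%, and nothing is read from the members' count, since the rule used the same ratios. The 4 members whose genotypes overlapped were CG4577, eEF1alpha2, Atf-2 and a probe set with no symbol. By the rule an overlap can come only between arrays of different days. In a limma fit over the 9432 probe sets with a signal above 40 on any array, 16 members were called lower at an adjusted p under 0.05, beside 1.21% of all probe sets tested. That count also rests on the contrast that chose the members. The 13 with a gene symbol were CG2519, Nt5b, IA-2, wry, Mnn1, unc-104, E(bx), CG42540, Gbs-70E, 1 of the tau probe sets, Syt7, Asator and PolD2, and with the replicate number as a block no probe set was called. Leaving out 1 array moved the count of members called lower to between 3 (without control array 1, beside 0.159% of all probe sets) and 44 (without LARK overexpression array 1, beside 3.28%).

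The members lay mainly in the lower and middle range of signal. Their median control signal was 209.6, beside 272.6 over the 3050, and 32 had a mean control signal of at most 200, 27 lay between 200 and 500 and 11 were above 500. With LARK overexpression 48 stayed above 40 on all arrays and 6 were at 40 or below on all of them. The 6 were CG42540, IA-2, Asator, wry, PolD2 and a probe set with no symbol, and the size of a difference in this range is poorly measured. A floor at 40 moved the log2 difference of IA-2 from -3.81 to -2.27 and that of CG42540 from -4.01 to -1.94.

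**Figure D2:**
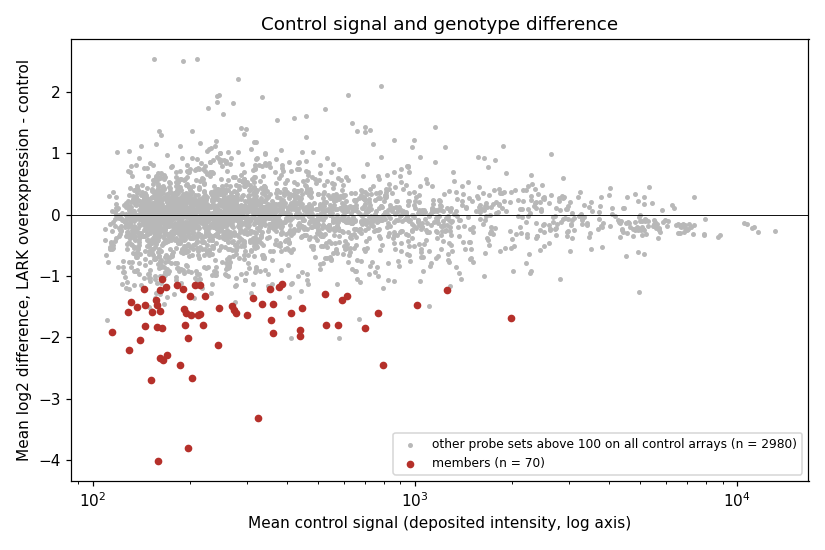
Mean control signal (log axis) against mean log2 difference for the 70 members (red) and the other 2980 probe sets above 100 on all control arrays (grey). Members lie between -4.01 and -1.04 on the vertical axis and reach a control signal of 1986, while the probe sets of highest signal lie near 0.

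The limit of 0.5 fell in a dense part of the distribution. There were 27 members with a largest ratio of 0.45 to 0.5 and 26 probe sets just outside at 0.5 to 0.55. Nearest inside were alpha-Est9, gem and Ttd14, with largest ratios of 0.497, 0.496 and 0.493. Nearest outside were spin, CG5758 and CG16974 at 0.503, 0.507 and 0.508. These neighbours differ little in their ratios, and the edge of the set is a choice of limit. With each array centred on its median, 39 of the 70 stayed below 0.5 in every pair.

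The group of vesicles and transport also took in tau and the kinase gene Asator. It held 9 genes and 10 probe sets at log2 differences of -3.81 to -1.33 and a median of -1.90. IA-2, a receptor-type phosphatase protein of dense-core vesicles, read 37.9, 6.0 and 11.5 on LARK overexpression arrays 1, 2 and 3 and 214.9, 142.1 and 235.7 on control arrays 1, 2 and 3. All 3 LARK overexpression values were below the lowest control value, as in 66 of the 70 members, and array 1 was the highest of them. Asator, a kinase that resembles the tau-tubulin kinases of mammals, read 29.1, 22.9 and 18.8 against 176.3, 138.2 and 140.1. Its ratios of 0.165, 0.166 and 0.134 were all close to one another. The kinesin gene unc-104, whose motor carries synaptic vesicle precursors, read 128.7, 70.7 and 93.5 against 428.6, 318.5 and 340.0. The mean log2 difference was -1.92, and the arrays of the genotypes were far apart.

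Proteins of vesicle release were further members of this group. Tomosyn, which binds SNARE proteins and holds back vesicle priming, read 178.3, 90.4 and 96 with LARK overexpression and 530.1, 308.5 and 473.8 in the control, which gave a mean log2 difference of -1.88. The vesicle protein gene Syngr, which encodes synaptogyrin, read 188.4, 127.0 and 146.7 against 551.8, 344.2 and 436.9. Its ratios, 0.341, 0.369 and 0.336, were among the most even of the set. The calcium sensor gene Syt7, a synaptotagmin, had a log2 difference of -2.01, and fwe, which encodes the vesicle calcium channel protein flower, had -1.63. Unc-76, whose product binds the kinesin heavy chain, had -1.82.

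The microtubule-binding protein tau was read by a pair of members. On LARK overexpression arrays 1, 2 and 3 the first read 89.9, 51.4 and 37.4, against 242.6, 226.8 and 262.1 on the control arrays, and had a mean log2 difference of -2.13. The second read 119.5, 67.2 and 75.6 against 292.0, 146.7 and 227.2, a log2 difference of -1.33. Neither overlapped between genotypes, as in most members by the rule, and the first had its lowest ratio, 0.143, in pair 3. Proc, which encodes the precursor of the neuropeptide proctolin, read 86.9, 28.6 and 36.3 against 207.8, 146.5 and 138.0. The highest LARK overexpression value of Proc came from array 1.

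Surface and adhesion proteins gave 6 members at -2.37 to -1.18. Fas1, a neuronal adhesion protein with a lipid anchor, read 174.3, 114.7 and 142.3 with LARK overexpression and 811.3, 327.7 and 448.8 in the control. Control array 1 was well above the other control arrays for Fas1, and its ratios were 0.215, 0.35 and 0.317. The protease gene teq (Tequila), known for a part in long-term memory, read 362.3, 131.7 and 146.9 against 836.2, 526.5 and 736.6. Here array 1 was the highest of the LARK overexpression arrays and the 2 genotypes did not overlap, as in most members by the rule. The gene wry, which encodes a surface protein with EGF repeats, had a log2 difference of -2.37. The tensin gene by had -1.59, the tetraspanin gene Tsp97E -1.18 and CG14762, a gene with leucine-rich repeats, -1.21. The eye genes rdgC, whose phosphatase acts on rhodopsin, and Ttd14, needed for traffic of the TRP channel, had -1.80 and -1.46.

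RNA-binding and translation gave 6 genes and 7 probe sets, at -1.64 to -1.23. Both members of Sxl, the splicing switch of female development, were in this range, at -1.64 and -1.53. Because both sexes were mixed, other genes of sex determination and of the female fat body were read beside it. The geometric mean ratio was 1.13 for tra and 0.995 for dsx, and 0.827, 0.822 and 0.863 for the female yolk protein genes Yp1, Yp2 and Yp3, with Yp1 at 1.3, 0.703 and 0.62 in pairs 1, 2 and 3. It was 0.881 for tra2, 0.868 for vir and 0.809 for fl(2)d, and ran from 0.327 to 1.03 over the fru probe sets. Lower ratios were read for msl-1 (0.316), msl-2 (0.507) and mle (0.68), at dim mean control signals of 35.1, 33.4 and 64.8. The splicing factor gene ps (pasilla) read 58.9, 46.0 and 56.0 with LARK overexpression and 180.4, 118.8 and 185.3 in the control. The remaining members of the group were gw (-1.61), which encodes the GW182 protein of microRNA silencing, qkr58E-2 (-1.48), lost (-1.39) and eEF1alpha2 (-1.23). The translation elongation factor gene eEF1alpha2 was the second brightest member, at 873.7, 322.1 and 450.9 against 1852.4, 766.9 and 1141.8. LARK overexpression array 1 was above control array 2 for eEF1alpha2, so its genotypes overlapped across days, while the rule fixes their separation within a day.

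Nuclear proteins gave 7 members at -2.34 to -1.15. E(bx), a large subunit of the NURF chromatin remodeler, read 14.5, 41.2 and 52.8 with LARK overexpression and 155.7, 141.1 and 186.4 in the control. Array 1 was here the lowest of the LARK overexpression arrays, unlike in IA-2 and Proc. The other members of the group were PolD2, a subunit of a DNA polymerase (-1.91), Mnn1, the fly menin gene (-1.83), Pur-alpha (-1.71), Clamp, which binds GA repeats and takes part in dosage compensation (-1.32), gem (-1.21) and Atf-2 (-1.15).

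Metabolism and uptake gave 10 genes at -2.46 to -1.23. Gbs-70E, a subunit that brings protein phosphatase 1 to glycogen, read 279.9, 85.8 and 112.2 with LARK overexpression and 1064.9, 557.0 and 755.3 in the control. At a mean control signal of 792.4 it was the fourth brightest member, and its log2 difference of -2.46 was the lowest among the 11 members above 500. The amino acid transporter gene path read 376.5, 200.5 and 209.8 against 820.7, 704.3 and 776.7. Its control arrays were close together and its LARK overexpression arrays were not. Tret1-1, a trehalose transporter gene, had -1.60, the amino acid transporter gene CG1607 -1.54, the lipophorin receptor gene LpR2 -1.23 and Agpat1, which acts in phospholipid synthesis, -1.40. The exchanger gene CG1090, the nucleotidase gene Nt5b, the inositol phosphate hydrolase gene Aps and the esterase gene alpha-Est9 had -1.56, -2.05, -1.36 and -1.62.

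The other 17 named genes were grouped under no role and ran from -4.01 to -1.04. The lowest mean log2 difference of the set belonged to CG42540, which read 9.5, 10.8 and 8.4 with LARK overexpression and 133.4, 126.2 and 216.2 in the control. Those LARK overexpression values are far below 40. CG6700 had a log2 difference of -2.28 and CG2519 had -2.20, with ratios of 0.107, 0.25 and 0.383 in CG2519. The brightest member of all was the long noncoding RNA gene lncRNA:CR42862, at 866.0, 424.5 and 555.9 against 2738.8, 1332.2 and 1886.9. Its ratios of 0.316, 0.319 and 0.295 hardly differed between days although the signal itself changed from day to day in both genotypes. CG9297, CG4577 and CG6424 were bright as well, with mean control signals of 1011.8, 613.6 and 526.2 and log2 differences of -1.47, -1.32 and -1.30. The ubiquitin ligase gene ari-1 had -1.22. CG31522 and CG7332 had -1.14 and -1.04. The 10 members with no single symbol ran from -3.32 to -1.12, and 9 of them did not overlap between genotypes. Over the 3050 probe sets 6.79% read lower without overlap, and the rule used the same ratios, so nothing is read from that count.

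Many member genes were measured a second time on the same arrays, by probe sets that the rule did not choose. Of the 58 genes, 32 had 1 probe set and 24 had at least 1 outside the set, 36 probe sets in all. Of these 36, 17 passed the control limit, from 14 genes. Their median log2 difference was -0.01, from -1.30 to 0.30, and 13 of the 17 were within 0.5 of 0. They come from the same contrast, and a gene's other probe sets can only lie outside the limit, so they are a description with no test. The brightest other probe set read a higher ratio than the member in 3 of 3 pairs for all 14 genes, and in 10 of the 14 it was also the brighter of the pair in the control. For 12 of the 14 genes it lay within 0.5 of 0.

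The microRNA silencing gene gw shows the contrast in full. Its member read 186.6, 87.5 and 127.1 with LARK overexpression and 609.6, 273.9 and 350.2 in the control. Its other probe set read 1238.0, 496.2 and 773.0 against 1170.5, 518.7 and 724.0, with ratios of 1.06, 0.957 and 1.07. On the same arrays, then, 1 probe set of gw was lower in every pair and the other was level. The same held for lncRNA:CR42862, whose other probe set read 3191.6, 1532.0 and 1814.0 against 2721.4, 1187.9 and 1732.7, a log2 difference of 0.22 beside -1.69 for the member. For Nt5b the other probe set was 7.29 times as bright as the member in the control and had a log2 difference of 0.03 beside -2.05. A further Nt5b probe set had -1.28, and so a gene could hold both.

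Among the remaining genes the brightest other probe set read 0.22 beside -1.88 in Tomosyn, 0.30 beside -1.59 in CG42748, 0.18 beside -1.54 in CG1607, 0.12 beside -1.47 in CG9297, -0.01 beside -1.21 in gem and -0.16 beside -1.84 in teq. Some of these genes had further probe sets that were not level. Those of CG42748 read -1.30, above the control limit, and -3.95, at a mean control signal of 29.8. Those of Tomosyn, all below the control limit, read -1.54, -0.58 and -0.11. Those of teq read 0.22, above the control limit, and -3.66, at a mean control signal of 56.3. In Unc-76, Ttd14 and lost the brightest other probe set read -0.37, -0.34 and -0.35. Only Tret1-1 and ps, of the 14, had a brightest other probe set below -0.5, at -0.92 and -0.85. The member genes also had 15 dimmer probe sets that were above 40 at least once but did not pass the control limit. Of these, 9 had a log2 difference below -1, and the median was -1.10. Examples with all 3 ratios below 0.5 were Syt7 (-1.89), wry (-1.59), CG42540 (-2.39), Tomosyn (-1.54) and CG1090 (-1.09), each from another probe set of a member gene. With LARK overexpression Syt7, wry and CG42540 averaged 34.2, 31.4 and 17.4, where a ratio is poorly measured. Tomosyn and CG1090 averaged 48.8 and 45.2.

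**Figure D3:**
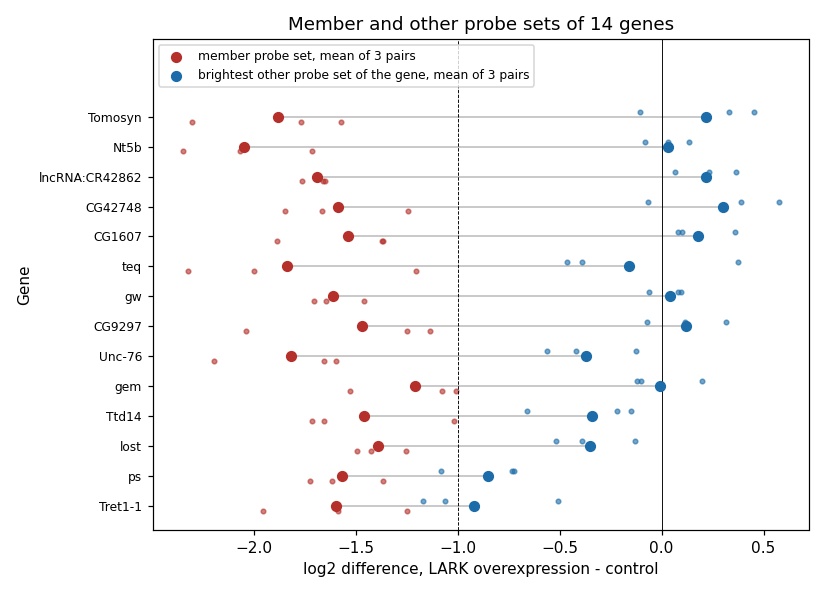
Log2 difference of the member probe set (red) and of the brightest other probe set of the same gene that passed the control limit (blue), for 14 genes. Large points are means of 3 pairs and small points the single pairs, and 12 of the 14 blue means lie within 0.5 of 0.

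The spread within genes was then taken over the whole array. Of 82 genes with several probe sets above the control limit, 25 (30.5%) had log2 differences that ranged over more than 1. The share was 75% (12 of 16) where the gene had a member, which the rule in part fixes, and 19.7% (13 of 66) where it had none. Member genes also had more probe sets: 44.8% of the 58 had several on the array, beside 14% of 2468 other genes with a probe set above the control limit. A gene with more probe sets has more chances to enter the set, so part of that excess follows from the rule.

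Annotation history was not used by the rule. Fly gene models carry CG or CR numbers, and a gene built from several earlier models keeps their numbers among its names in the RefSeq gene table (assembly Release 6 plus ISO1 MT). Of the 58 member genes 25 (43.1%) had at least 2 such numbers and 21 (36.2%) at least 3, beside 13.9% and 7.41% of the 2468 other genes. With genes of 1 probe set above the control limit alone, which have a single chance to enter, the shares with at least 2 numbers were 28.6% of 42 and 12.5% of 2402. The most numbers were held by tau and ps, with 6 each, and by CG42540 and E(bx), with 5. These shares were computed after the values of the members were known and carry no test, and the positions of the probes within the transcripts were not analysed here.

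The array's own control transcripts, which have separate probe sets for the 3′, middle and 5′ part, were read beside the set because they report on the length of the labeled RNA. The 3′ to 5′ signal ratio of eIF-4a was 6.52, 6.26 and 6.05 on LARK overexpression arrays 1, 2 and 3 and 3.02, 2.81 and 2.81 on control arrays 1, 2 and 3. For ACTIN it was 5.51, 5.79 and 6.21 against 3.41, 1.89 and 1.95, and for GAPDH 5.06, 4.61 and 3.23 against 2.82, 4.04 and 2.95. The genotypes did not overlap for eIF-4a and ACTIN and did for GAPDH. The 5′ probe set of eIF-4a had LARK overexpression to control ratios of 0.528, 0.342 and 0.335, while its 3′ probe set had 1.14, 0.761 and 0.719. In pairs 2 and 3 the ratio of the 5′ end of this 1 transcript was close to that of the median member, at control signals of 1791.6 and 2044.0. In pair 1 it was above the members' median of 0.352. The 5′ ratios of the other transcripts were above the members' medians in every pair, at 0.682, 0.729 and 0.823 for GAPDH and 0.634, 0.647 and 0.786 for ACTIN. The 3′ probe set of ACTIN had 1.03, 1.98 and 2.5, so its 3′ to 5′ ratio differed through both ends in pairs 2 and 3. The part of RNA length in the members' values was not tested.

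**Figure D4:**
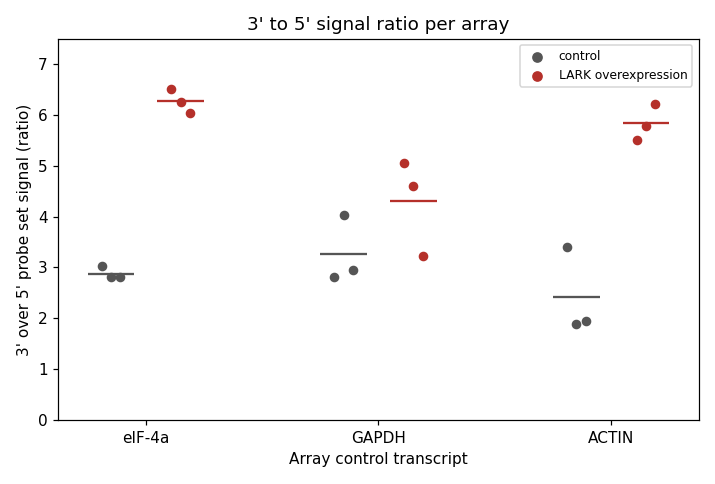
Ratio of 3′ to 5′ signal of the control transcripts eIF-4a, GAPDH and ACTIN on the 3 control arrays (grey) and the 3 LARK overexpression arrays (red), with bars at the means. The means are 6.27 against 2.88 for eIF-4a, 4.30 against 3.27 for GAPDH and 5.84 against 2.42 for ACTIN.

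Markers of cell types were read beside the members. The summed signal of 13 probe sets of 9 neuron marker genes was 2584.0, 1190.9 and 1613.2 with LARK overexpression and 3810.1, 1986.3 and 2752.3 in the control, ratios of 0.678, 0.6 and 0.586. Every member ratio was below 0.5 by the rule, so a lower median of the members was fixed in advance. The neuron sums include nSyb (149.1 against 580.7 on average) and Gad1 (106.8 against 412.2), which met the ratio limit too. Of the 11 probe sets of the list above 40 on any array, 7 had a log2 difference below 0. Within the list, 3 probe sets were called lower and none higher, elav read 40.9 against 52.1, and the cholinergic gene ChAT read 284.3 against 220.9. Photoreceptor markers (8 genes) had ratios of 1.14, 0.727 and 0.721, glia markers (13 genes) 1.06, 1.43 and 1.5, fat body markers (11 genes) 1.25, 0.711 and 0.658, muscle markers (12 genes) 1.04, 1.5 and 1.39 and hemocyte markers (6 genes) 1.06, 0.957 and 1.37. These sums are carried by the brightest genes, such as Yp1 in the fat body: of single probe sets, 3 of fat body, 1 of muscle and 1 of glia were called higher, and no probe set of these 5 lists was called lower. Over all 9432 probe sets tested, 32 were called higher and 114 (1.21%) lower. Gut markers (11 genes) summed to 1280.2, 3496.3 and 3492.0 with LARK overexpression and 976.7, 679.8 and 821.0 in the control. Of that list 6 probe sets were called higher, and 7 were at 40 or below on all control arrays. LysB, Amy-d and LysD passed the control limit, at mean control signals of 288.0, 203.3 and 130.5. In the same list alphaTry averaged 8.87 in the control and 306.3 with LARK overexpression. Of the marker lists, only that of neurons held probe sets that met the ratio limit, nSyb and Gad1, and both were set aside by name. The part of cell makeup in their values was not tested.

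The neuronal gene lists drawn up for this comparison held 82 of the 3050 probe sets above the control limit (2.69%), 8 of the 75 that met the ratio limit (10.7%) and 3 of the 70 members (4.29%). The 5 probe sets set aside by name were all on these lists, so the count of members on them was lowered by the rule. The list of synaptic vesicle release held 1 member, IA-2, and of its 21 probe sets with a signal above 40 on any array 2 were called lower and none higher, with a median of -0.37 beside -0.07 over all 9432. Of those 9432, 114 (1.21%) were called lower, and the counts of the lists were not tested against that share. Neuropeptides and dense-core vesicles, where IA-2 also stands, had 1 of 20 called lower and a median of -0.57. Adhesion and axon guidance, which holds Fas1, had 1 of 55 and -0.41, and neuronal RNA-binding proteins, which hold ps, had 0 of 24 and -0.47. Ion channels (0 of 31 called, -0.66) and transcription factors (2 of 35 lower, -0.29) had no probe set that met the ratio limit. Transmitter receptors (2 of 28 lower, -0.31), cAMP, calcium and kinase signalling (1 of 28 lower, -0.41) and transmitter synthesis and transport (2 of 13 lower, 0.17) each had 1, DopEcR, Lk6 and Gad1, and lack a member because these were set aside by name. No probe set of these lists was called higher, and such calls were few over the whole array, 32 of 9432, so nothing is read from their absence.

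LARK target RNAs, those that the study listed after immunoprecipitation of LARK from brain, were not among the members as probe sets. Of 220 target probe sets on the array 130 passed the control limit, 3 of these met the ratio rule, and all 3 belong to genes set aside by name. A pair of member genes, gw and IA-2, is listed as targets through other probe sets. The listed gw probe set is the level one described above. The listed IA-2 probe set matches several genes in the annotation and is not read as IA-2.

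Genome neighbourhood tied few members together. CG13928 lies next to nSyb, with 0 protein-coding genes between, and nSyb met the ratio rule but was set aside by name. CG42748 and Clamp overlap in their annotated spans with 1 protein-coding gene between their starts, and the values are given by gene as annotated. Asator and Pur-alpha have 2 protein-coding genes between them, as do CG7332 and CG7378. Asator, Pur-alpha, Syt7 and gw are all on chromosome 4, the small fly autosome, which held 4 of the 60 placed members (6.67%) and 34 of 2616 placed probe sets above the control limit (1.30%). The median log2 difference of those 34 was -0.23, and -0.19 without the members.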

How the data were processed

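The authors deposited linear intensity values per probe set. MAS5, with no version, is named in the submitters' notes on processing, while the study's methods describe GCRMA, so the deposited values and those of the study's own analysis differ in normalization. The images were not used. The table holds 13966 probe sets beside 44 array controls. The annotation gives 12443 of them 1 symbol, 327 several and 1196 none, and a probe set with several is not named.

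Values were taken to log2, and the 9432 probe sets above 40 on at least 1 of the 6 arrays were compared between genotypes with limma 3.58.1 in R 4.3.3 (2-sided, Benjamini-Hochberg over all 9432, called at an adjusted p under 0.05). The fit was tested on simulated data with independent noise on each array. Those data held no shared day or array effect, so that test does not cover such effects. The 3 arrays per genotype limit the precision, and p-values measure only the spread between these arrays. Replicate numbers pair the arrays, because the arrays of each number share 1 of 3 hybridization days. Deviations of same-number arrays from their genotype means correlated at 0.0936, 0.172 and 0.0256.

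The members and lists were chosen with earlier results of these data known. Genes were named where they were among the 12 members of highest control signal or the 12 of lowest ratio, in a list, among the LARK targets or nearest the limit. Other probe sets of a member gene were also named. Further members were named by role. The role groups and the counts of gene models, chromosome 4 and sex genes were chosen after their values were seen. Alternatives covered scaling, an offset, a floor, filters, the variance prior, a block, the limits of the rule and left-out arrays. Sequences and coordinates are not used here.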

Additional observations from a re-analysis of the deposited data

Results flagged for a closer look

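The array's control transcripts lie outside the comparison of genes, and for eIF-4a and ACTIN their 3′ to 5′ signal ratios differed between the genotypes. The 3′ to 5′ signal ratio of eIF-4a averaged 6.27 on the LARK overexpression arrays (SD 0.24, n = 3) and 2.88 on the control arrays (SD 0.12, n = 3). That of ACTIN averaged 5.84 (SD 0.35, n = 3) and 2.42 (SD 0.86, n = 3). No array of 1 genotype overlapped the other genotype in either transcript. The ratio of GAPDH averaged 4.3 (SD 0.95, n = 3) and 3.27 (SD 0.67, n = 3), and its genotypes overlapped.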

How the results depend on the processing

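The set depends on its limits and on the scaling. The 70 members became 39 with each array centred on its median, 23 with all 9 ratios of a LARK overexpression to a control array under 0.5, 125 with the ratio of genotype means, 153 and 28 with a control limit of 50 and 200, and 31 and 125 with a ratio limit of 0.4 and 0.6. Leaving out a same-number pair gave 79 to 146 members, with 146 without pair 1 and 135 without pair 2. Quantile normalization kept 63 of the 70 and adding 16 to every value kept 50. The median log2 difference of -1.60 was -1.40 after centring, which moved the median of all 3050 probe sets to 0.17, and -1.42 with 16 added. It was -1.66 to -1.55 without a pair. Of the 60 members with a symbol none changed sign under any scaling, offset, floor or left-out pair. Every member ratio was below 0.5 by the rule. The sign was thus fixed in advance for a left-out pair and nearly so for the other settings, and nothing is read from it.

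The limma count of 146 probe sets (78.1% lower) was 83 after centring (90.4% lower), 118 with quantile normalization (91.5%), 242 with 16 added (53.3%), 230 with an intensity trend and robust prior (60%), 12 with no filter (91.7%) and 214 with a filter at 100 (49.5%). With a floor at 40 limma called 0, with 811 at an unadjusted p under 0.05. With the replicate number as a block it called 0, with 1903 at an unadjusted p under 0.05, and with the block, trend and robust prior together it called 571. Leaving out 1 array gave 34 (without control array 1) to 465 (without LARK overexpression array 1), and 232 without control array 2. The causes were not tested. Signals near or below 40 limit how well the lowest ratios are measured.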
